A study of Homo sapiens with 18 samples.

Results

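ETS transcription factors share a DNA-binding domain that recognises a GGAA core, and the 10 genes described here are family members that act at the end of growth factor signalling or mark epithelial cells. They were taken from the deposited table by gene name: ETV1, ETV4, ETV5, ETS1, ETS2, ELK1, ELK3, ELK4, ELF3 and EHF, 10 of 57500 genes and 10 of 28 ETS family genes listed. RNA came from SNU2535, NCI-H3122 and NCI-H2228, 3 established human lines of non-small cell lung cancer, each labelled with genotype WT and known for EML4-ALK fusions. Each line was treated with DMSO, the solvent, or with 3 µM TRI-611 for 3 h, and every one of the 6 groups had 3 libraries. TRI-611 is, by the series title, a glue compound that leads ALK to degradation, and ALK is a receptor tyrosine kinase. There was 1 dose and 1 time, and whether the libraries of 1 group stem from separate cultures is not stated in the labels, so a p-value covers the spread of these samples alone, which may be technical.

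ERK, the kinase at the end of the RAS pathway, acts on ETS factors in several ways. ETV1, ETV4 and ETV5 form the PEA3 group, and the repressor CIC holds down ETV1, ETV4, ETV5 and feedback genes such as DUSP6 until ERK removes it. ETS1 and ETS2 are phosphorylated by ERK and bind with AP-1 at protease genes. ELK1, ELK3 and ELK4 are ternary complex factors, which sit with SRF at serum response elements of immediate early genes such as EGR1. ELF3 and EHF belong to the epithelium-specific branch, are expressed in surface epithelia of the airway and other organs, and are known for roles in epithelial differentiation.

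Values are TPM, by definition a transcript abundance scaled for gene length and brought to the same sum in each library, so that genes can be compared within a library. How TPM was derived here is not given, so shares, ratios and orders of different genes rest on that definition. TPM holds no read totals, so sequencing depth is unknown and no counting interval can be given. Each library had 23766 to 25921 genes above 0 TPM, replicates correlated at r = 0.991 to 0.993 across genes, and mitochondrially encoded genes took 7.59% to 15.0% of TPM, highest in TRI-611 replicate 3 of NCI-H3122. Of 13 lung adenocarcinoma and epithelial markers, 12 lay at 1 TPM or more in SNU2535 with DMSO, 9 in NCI-H3122 and 11 in NCI-H2228, and SFTPC was listed at 0 in both SNU2535 and NCI-H3122. With DMSO the E-cadherin gene CDH1 measured 567 ± 5.13, 167 ± 1.59 and 5.65 ± 0.0778 TPM in SNU2535, NCI-H3122 and NCI-H2228 (SD, n = 3 each), and VIM, which encodes the mesenchymal filament vimentin, measured 50.2 ± 1.73, 0.939 ± 0.216 and 1036 ± 30.9 TPM. NCI-H2228 therefore had low CDH1 and high VIM RNA, though not every marker followed. The 8 fibroblast and mesenchymal markers summed with DMSO to 208 to 219, 219 to 225 and 1401 to 1452 TPM, in the same order. Of 4 tested, 2 were higher and 2 lower in SNU2535 than in NCI-H2228, and 1 higher and 3 lower in NCI-H3122. Of 12 epithelial markers tested, all 12 were higher in SNU2535 than in NCI-H2228, and 7 were higher and 5 lower in NCI-H3122. These marker counts are calls by limma (adjusted p under 0.05). Of all tested genes, 75% were called between SNU2535 and NCI-H2228 and 79.3% between NCI-H3122 and NCI-H2228, in either direction. Leukocyte markers summed to at most 13.3 TPM and endothelial markers to at most 14.5 TPM in any library. RNA of ALK itself did not pass the test in any line (log2 change -0.21, -0.09 and -0.02, limma adjusted p = 0.0518, 0.282 and 0.868 in the same order).

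Promoter sequence is shown for 3 members, the windows that hold a searched motif or belong to the member with the sharpest difference between lines. RefSeq windows (GRCh38.p14) matched 7 of the 10 members with 15 windows, and none was matched for ETV4, ETV5 and ETS1. Each window was searched on both strands for 6 motifs: TGAATGAA and TGAATGGA (CIC octamers), CCGGAAG (ETS site), TGANTCA (AP-1), GTAAACA (FOXO) and the CArG box bound by SRF. The search and the percentages below also took in a stretch after the start that is not printed. The 250 bases before the start are given 5′ to 3′ on the gene's strand, with any match in capitals, for ETV1 at chr7:13991426-13991675 (minus strand), ELK4 at chr1:205632012-205632261 (minus strand) and EHF at chr11:34624007-34624256 (plus strand). None of these 3 stretches holds a base that GENCODE 29 annotates as exonic.
ETV1: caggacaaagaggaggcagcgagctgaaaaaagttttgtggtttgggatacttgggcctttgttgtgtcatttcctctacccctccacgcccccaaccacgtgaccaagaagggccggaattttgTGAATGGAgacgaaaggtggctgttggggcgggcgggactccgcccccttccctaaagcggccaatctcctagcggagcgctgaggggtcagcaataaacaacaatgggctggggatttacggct
ELK4: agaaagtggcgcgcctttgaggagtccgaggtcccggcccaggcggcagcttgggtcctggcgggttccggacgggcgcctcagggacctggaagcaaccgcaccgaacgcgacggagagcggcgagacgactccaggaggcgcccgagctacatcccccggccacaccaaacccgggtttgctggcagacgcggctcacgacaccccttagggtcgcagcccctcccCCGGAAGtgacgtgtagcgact
EHF: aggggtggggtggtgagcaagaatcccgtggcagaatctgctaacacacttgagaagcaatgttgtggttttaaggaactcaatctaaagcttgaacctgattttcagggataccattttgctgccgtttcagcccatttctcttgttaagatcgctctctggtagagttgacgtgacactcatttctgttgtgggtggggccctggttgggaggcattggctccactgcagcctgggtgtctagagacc
The capitals in ETV1 mark a TGAATGGA octamer whose first base lies 125 bases upstream of the start, a motif found in 1.03% of all 35116 windows. ETV1 had 6 of the 15 windows, and no other ETV1 window held a match. The capitals in ELK4 mark CCGGAAG, 22 bases upstream, found in 10.3% of windows. The EHF window shown, inside the annotated gene but outside its exons, had no match, and a second EHF window, not shown because 102 of its bases lie in annotated exons, held a FOXO site on the opposite strand, 196 bases upstream (3.42% of windows). TGAATGAA (1.65% of windows), TGANTCA (7.71%) and the CArG box (1.29%) had no match in any of the 15 windows, nor did the single ELF3 window hold any of the 6. That ELF3 window lies inside the annotated gene, and all 250 of its bases before the start are in annotated exons. A match is a string of letters and not evidence of binding.

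The first comparison asked how the untreated lines differ in these factors. In SNU2535 the epithelial factors led: ELF3 measured 142 ± 4.18 and EHF 129.9 ± 2.74 TPM with DMSO (SD, n = 3 each), followed by ELK3 at 61.4 ± 1.33 TPM. In NCI-H3122, ELK3 (98.4 ± 2.12 TPM) and ELF3 (96.9 ± 3.76 TPM) stood highest with overlapping replicates, and ETS2 came next at 91.6 ± 0.556 TPM. In NCI-H2228 the order was headed by ETV5 (121 ± 5.14 TPM), ETS1 (118 ± 4.04 TPM) and ELK3 (116 ± 1.88 TPM), where ETV5 overlapped ETS1 and ETS1 overlapped ELK3. ELK4 was last in SNU2535 (18.2 ± 0.994 TPM) and in NCI-H2228 (35.5 ± 2.21 TPM), and ETV1 was last in NCI-H3122 (1.65 ± 0.141 TPM). Further down the NCI-H2228 order, the ranges of ELK1 and ETV1, of EHF and ETS2, and of ETS2 and ELK4 also overlapped, while no neighbours overlapped in SNU2535.

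**Figure D1:**
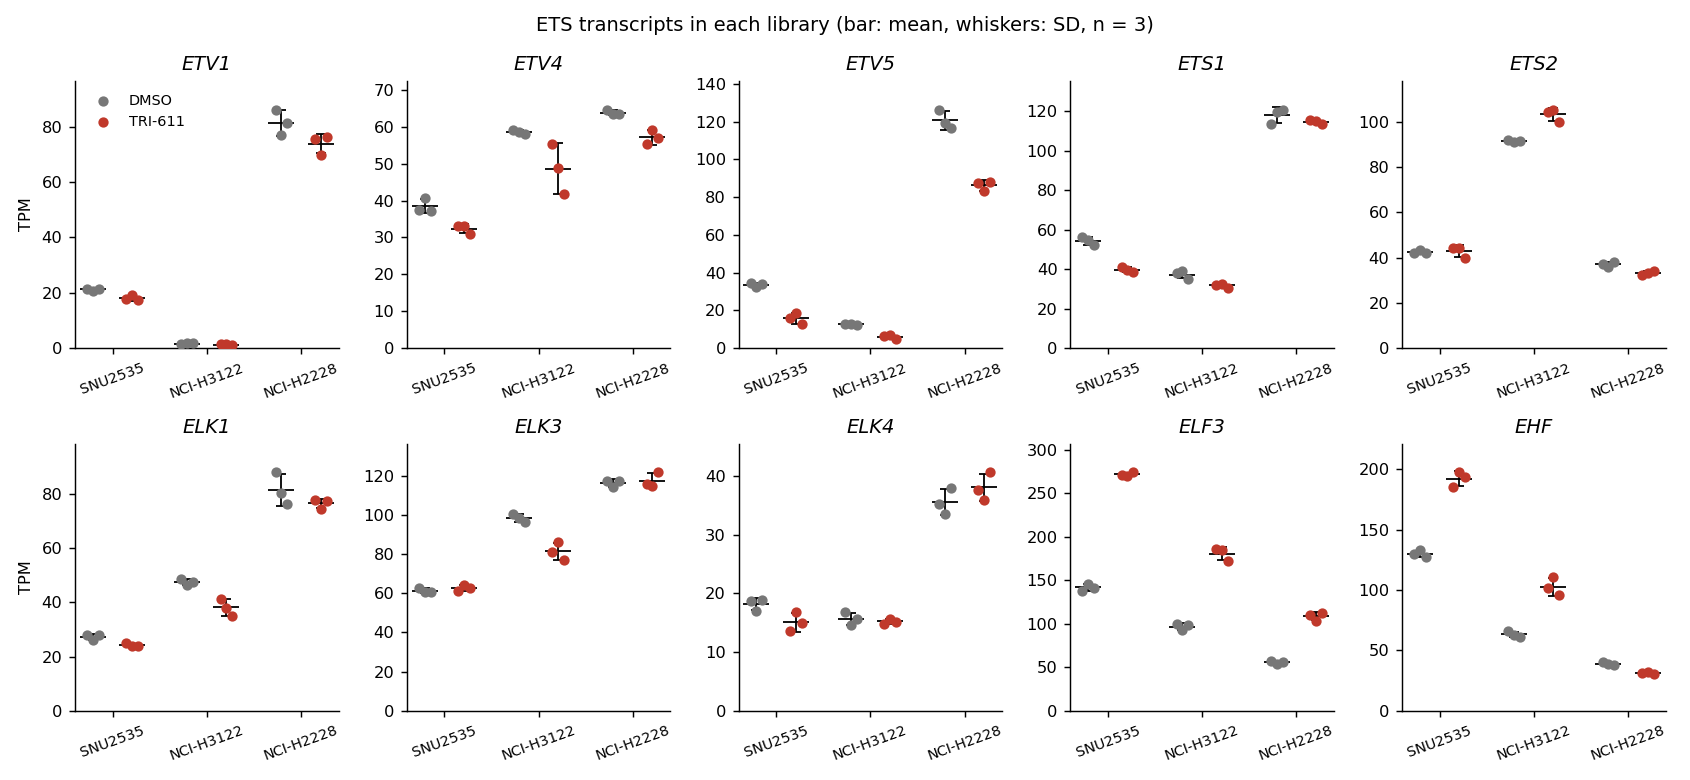
TPM of the 10 ETS genes in each of the 18 libraries, by line and treatment, with each point 1 library and black bars for the mean and SD of 3. ETV1 lies near 1 to 2 TPM in NCI-H3122 and above 69 TPM in every NCI-H2228 library, and ELF3 is higher with TRI-611 than with DMSO in all 3 lines without overlap.

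All 10 members passed the test between every pair of untreated lines (limma, adjusted p under 0.05, over the 9 DMSO libraries), against 76.1% of tested genes between SNU2535 and NCI-H3122, 75% between SNU2535 and NCI-H2228, and 79.3% between NCI-H3122 and NCI-H2228. Passing was thus common to most genes in these comparisons, and the sizes carry more than the count. ETV1, a PEA3 factor, measured 86.2, 76.95 and 81.3 TPM in the 3 DMSO libraries of NCI-H2228, 21.5, 20.7 and 21.4 TPM in SNU2535 and 1.49, 1.69 and 1.76 TPM in NCI-H3122. The 3 lines did not overlap, and NCI-H2228 exceeded NCI-H3122 49.5-fold (log2 difference of NCI-H3122 minus NCI-H2228 -4.96, SE 0.0576, limma adjusted p = 2.81e-12). ETV5, its PEA3 relative, measured 126, 119 and 116 TPM in NCI-H2228, 34.3, 32.6 and 33.9 TPM in SNU2535 and 12.9, 12.6 and 12.4 TPM in NCI-H3122. The order was the same as for ETV1, with a 9.58-fold distance between the extremes (log2 difference -3.16, SE 0.0411, limma adjusted p = 5.33e-12). ETV4 moved within a narrower range, from 38.5 ± 1.90 TPM in SNU2535 to 63.8 ± 0.721 TPM in NCI-H2228.

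The 3 PEA3 transcripts summed to 266 ± 9.80 TPM in NCI-H2228, 93.3 ± 0.688 TPM in SNU2535 and 72.8 ± 0.700 TPM in NCI-H3122 with DMSO (SD, n = 3 each). Their make-up differed between lines. ETV4 alone supplied 80.4 ± 0.0323% of the sum in NCI-H3122, where ETV1 supplied 2.26 ± 0.214%, while in NCI-H2228 ETV5 supplied 45.4 ± 0.702%, ETV1 30.6 ± 0.844% and ETV4 24.01 ± 0.601%. SNU2535 lay between, with 41.2 ± 1.76% ETV4, 36.03 ± 1.18% ETV5 and 22.7 ± 0.584% ETV1.

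**Figure D2:**
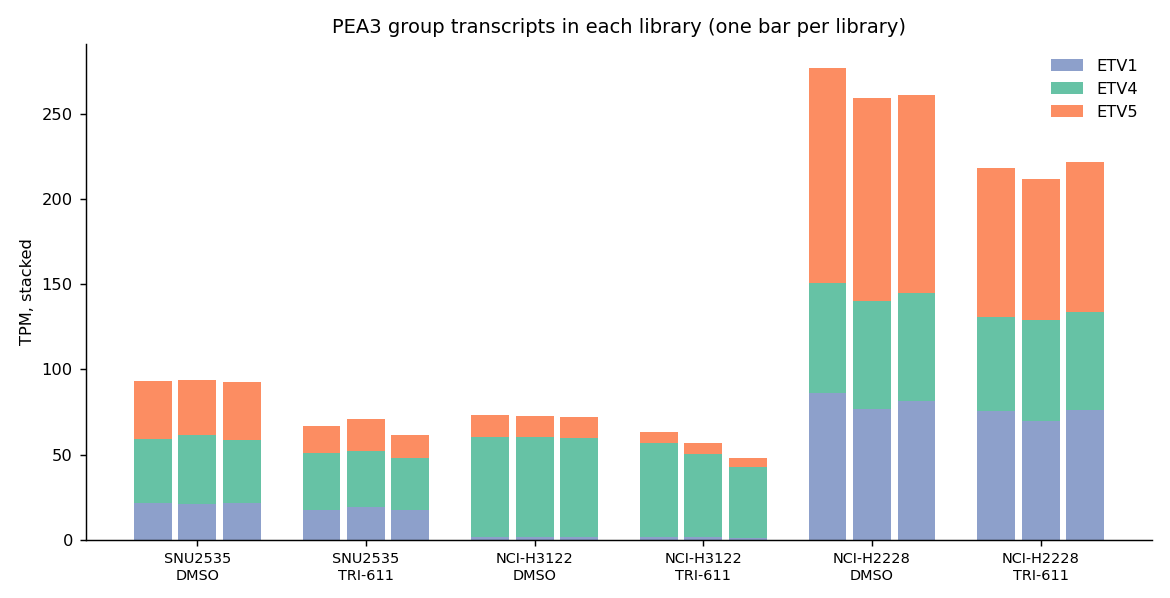
Stacked TPM of ETV1, ETV4 and ETV5 in each library, 1 bar per library. ETV4 fills most of every NCI-H3122 bar, all 3 genes contribute in the other lines, and the bars with TRI-611 are lower than those with DMSO in each line.

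The epithelial pair was lowest in NCI-H2228, where the PEA3 sum was highest. ELF3 and EHF together summed to 272 ± 6.31 TPM in SNU2535, 160.1 ± 5.16 TPM in NCI-H3122 and 94.6 ± 2.63 TPM in NCI-H2228, and made up 47.8 ± 0.753%, 30.6 ± 0.531% and 12.6 ± 0.0939% of the TPM of the 10 members (SD, n = 3 each). ELF3 was 2.54-fold and EHF 3.35-fold higher in SNU2535 than in NCI-H2228, the line with low CDH1. ETS1 and ETS2 were opposed: ETS1 was 3.17-fold higher in NCI-H2228 than in NCI-H3122, ETS2 was 2.48-fold higher in NCI-H3122, and the ratio of ETS1 to ETS2 was 3.19 ± 0.133 against 0.407 ± 0.0222. The ternary complex factors ELK1, ELK3 and ELK4 were each highest in NCI-H2228 as TPM, with the order of ELK3 against NCI-H3122 turning under median-ratio scaling, and ELK3 held 57.5 ± 0.933%, 60.9 ± 0.681% and 49.8 ± 0.999% of their sum in SNU2535, NCI-H3122 and NCI-H2228. In bulk RNA, fewer cells with a transcript and less of it per cell cannot be told apart.

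Small differences between untreated lines depended on scaling. The median log2 difference of all tested genes was 0.16 between SNU2535 and NCI-H3122, -0.111 between SNU2535 and NCI-H2228 and -0.25 between NCI-H3122 and NCI-H2228, and moved to 0.0109, -0.0259 and -0.0121 under median-ratio scaling. ETV4 was lower in NCI-H3122 than in NCI-H2228 by a log2 difference of -0.12 (limma adjusted p = 0.0147) but stood at 0.18 under median-ratio scaling (limma adjusted p = 0.00184) and 0.13 after quantile normalization (limma adjusted p = 0.00815). ELK3 stood at -0.24 in the same pair (limma adjusted p = 5.55e-05), and at 0.063 and -0.026 under these scalings, neither past the threshold. ELK4 was higher in SNU2535 than in NCI-H3122 by 0.20 (limma adjusted p = 0.0191), which fell to 0.014 and -0.055. That ELK4 call was also lost without DMSO replicate 1 or 3 of SNU2535 or DMSO replicate 2 of NCI-H3122 (limma adjusted p = 0.0578, 0.0631 and 0.0703).

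The main comparison asked how the 10 genes changed after 3 h of TRI-611 in each line. ELF3 rose and ETV5 fell in all 3 lines, and EHF rose in SNU2535 and NCI-H3122 but fell in NCI-H2228. In SNU2535, 7 of 10 members passed the test, 2 higher and 5 lower, where 28.7% of tested genes passed, 10.7% higher and 18.1% lower. In NCI-H3122, 7 of 10 passed, 3 higher and 4 lower, against 34.1% of tested genes, 20.6% higher and 13.4% lower. In NCI-H2228, 4 of 10 passed, 1 higher and 3 lower, against 11.2% of tested genes, 4.8% higher and 6.4% lower. The median log2 change of the members was -0.195, -0.231 and -0.112 in SNU2535, NCI-H3122 and NCI-H2228, beside -0.0187, 0.0549 and 0.0094 for all tested genes. The replicates of the 2 treatments did not overlap for 8, 9 and 6 of the 10 members, against 43.9%, 48.1% and 31.4% of tested genes.

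**Figure D3:**
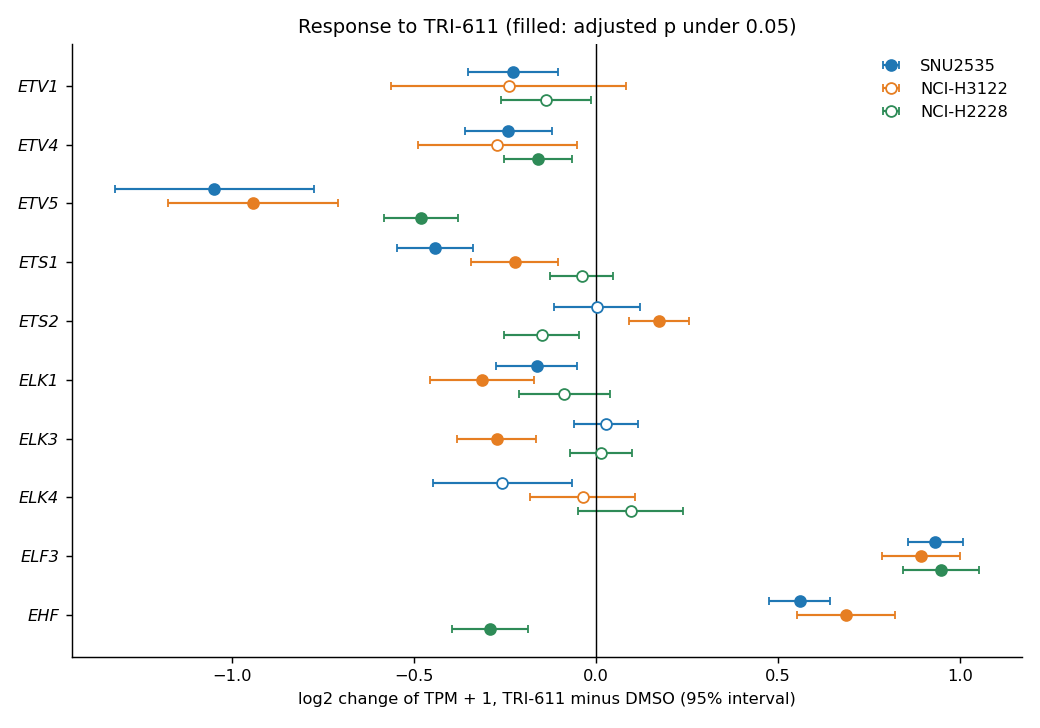
Log2 change of TPM + 1 between TRI-611 and DMSO for each ETS gene in each line, with limma's 95% interval and filled points for an adjusted p under 0.05. ELF3 lies near 0.9 in all 3 lines, ETV5 is lowest, and EHF is the gene whose called changes point in opposite directions.

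ELF3 (ENSG00000163435, GRCh38 chromosome 1, 202007945 to 202017188, plus strand), the epithelium-specific factor, showed the largest rise of the 10. In SNU2535 it measured 138, 146 and 141 TPM in the DMSO libraries and 271, 270.2 and 274 TPM with TRI-611. In NCI-H3122 the values were 99.5, 92.6 and 98.6 TPM and 185, 185 and 172 TPM, and in NCI-H2228 57.3, 53.9 and 56.2 TPM and 111, 103 and 112 TPM. Every TRI-611 library lay above every DMSO library of its line, with a gap far wider than the spread of replicates. The rise was 1.91-fold, 1.87-fold and 1.95-fold in TPM, or 0.93, 0.89 and 0.95 on the log2(TPM + 1) scale (SE 0.0323, 0.0457 and 0.0455, limma adjusted p = 2.03e-06, 9.98e-06 and 1.57e-05). It was thus of like size from starting levels that differed 2.54-fold. No difference in the ELF3 response passed the test between lines: SNU2535 minus NCI-H3122 was 0.04 (95% interval -0.083 to 0.16, limma adjusted p = 0.671, but 0.17 with adjusted p = 0.0400 under median-ratio scaling). The other differences were -0.016 for SNU2535 minus NCI-H2228 (-0.13 to 0.10) and -0.056 for NCI-H3122 minus NCI-H2228 (-0.20 to 0.085).

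Part of ELF3 overlaps ELF3-AS1 on the opposite strand, sharing 664 exonic bases (9.23% of the exonic length of ELF3), and the strand setting of the counting is not given in the sources used here. ELF3-AS1 measured at most 7.59% of the TPM of ELF3 in any library, with 4.86 and 6.62 TPM (DMSO and TRI-611) in SNU2535, 5.59 and 8.36 TPM in NCI-H3122 and 3.04 and 2.98 TPM in NCI-H2228. It rose in NCI-H3122 alone (0.50, limma adjusted p = 0.0184). AL691482.3, a transcript on the same strand as ELF3, also shares 664 exonic bases with it and reached at most 3.95% of the TPM of ELF3. Whether these are the bases shared with ELF3-AS1 was not checked. AL691482.3 rose from 2.18 to 5.76 TPM in NCI-H3122 (1.07, limma adjusted p = 0.00120) and did not pass in SNU2535 (0.45, adjusted p = 0.151) or NCI-H2228 (0.42, adjusted p = 0.175). Whether reads in the shared bases add to the ELF3 change was not tested.

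EHF (ENSG00000135373, chromosome 11, 34621093 to 34661057, plus strand), the closest relative of ELF3 among the members, split the lines. In SNU2535 it measured 129.6, 133 and 127 TPM with DMSO and 185, 197 and 193 TPM with TRI-611, and in NCI-H3122 65.9, 62.5 and 61.4 TPM and 102, 110.4 and 95.4 TPM. In NCI-H2228 the values were 40.1, 38.5 and 37.7 TPM with DMSO and 31.4, 32.2 and 30.8 TPM with TRI-611. The treatments did not overlap in any line, with TRI-611 above DMSO in SNU2535 and NCI-H3122 and below it in NCI-H2228. The log2 changes were 0.56 (SE 0.0359, limma adjusted p = 3.38e-05), 0.69 (SE 0.0581, adjusted p = 0.000106) and -0.29 (SE 0.0458, adjusted p = 0.00520). NCI-H2228 differed from SNU2535 by 0.85 (SNU2535 minus NCI-H2228, limma adjusted p = 1.21e-06) and from NCI-H3122 by 0.98 (NCI-H3122 minus NCI-H2228, adjusted p = 1.94e-06), while SNU2535 minus NCI-H3122 was -0.13 (95% interval -0.28 to 0.027). These are interaction tests, in which 10.6%, 14.3% and 20.1% of tested genes passed for SNU2535 minus NCI-H2228, NCI-H3122 minus NCI-H2228 and SNU2535 minus NCI-H3122.

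As a result the ratio of ELF3 to EHF went from 1.44 ± 0.0476 to 3.45 ± 0.221 in NCI-H2228, from 1.09 ± 0.0247 to 1.42 ± 0.0468 in SNU2535 and from 1.53 ± 0.0657 to 1.77 ± 0.0807 in NCI-H3122 (SD, n = 3 each). The pair's share of member TPM went to 64.9 ± 0.942%, 46.5 ± 0.477% and 19.00 ± 0.219% with TRI-611 in SNU2535, NCI-H3122 and NCI-H2228, with no overlap with the DMSO shares in any line.

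ETV5 (ENSG00000244405, chromosome 3, 186046308 to 186110318, minus strand) showed the largest fall. With DMSO and TRI-611 it measured 34.3, 32.6 and 33.9 TPM and 15.9, 18.8 and 13.02 TPM in SNU2535. It measured, in NCI-H3122, 12.9, 12.6 and 12.4 TPM and 6.62, 6.69 and 5.05 TPM, and in NCI-H2228 126, 119 and 116 TPM and 87.4, 83.1 and 88.1 TPM. All TRI-611 libraries lay below all DMSO libraries of the same line. The log2 changes were -1.05 (SE 0.116, limma adjusted p = 0.000613), -0.94 (SE 0.101, adjusted p = 0.000331) and -0.48 (SE 0.0440, adjusted p = 0.000384), and TPM went to 0.473, 0.486 and 0.714 times its DMSO level. The fall in NCI-H2228, the line with most ETV5, was smaller than in SNU2535 (difference -0.57, limma adjusted p = 0.0184) and NCI-H3122 (-0.46, adjusted p = 0.0128, but -0.20 and 0.111 with a pseudocount of 5). The mean level of ETV5 left in NCI-H2228 with TRI-611, 86.2 TPM, was still above its untreated level in either other line.

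ETV4 and ETV1, the other PEA3 factors, moved less. ETV4 (ENSG00000175832, chromosome 17, 43527844 to 43579620, minus strand) measured 37.4, 40.7 and 37.3 TPM with DMSO and 33.2, 33.01 and 30.95 TPM with TRI-611 in SNU2535, and fell there (-0.24, SE 0.0516, limma adjusted p = 0.0107). The NCI-H3122 values of ETV4 were 59.1, 58.5 and 57.9 TPM and 55.3, 48.9 and 41.7 TPM, and the spread of the TRI-611 libraries kept it above the threshold (-0.27, SE 0.0926, limma adjusted p = 0.0603, 0.0355 with the replicate block). The treatments did not overlap in NCI-H3122 either, and without TRI-611 replicate 1 the adjusted p was 0.00694 (limma). TRI-611 replicate 3, the library with 15.0% mitochondrially encoded TPM, held the lowest value of its group for 9 of the 10 members, all but ELK4 and including ELF3, EHF and ETS2, which rose. Without mitochondrially encoded genes, the 7 members called in NCI-H3122 kept their calls and ETV4 passed as well (-0.25, limma adjusted p = 0.0495). In NCI-H2228 ETV4 measured 64.7, 63.4 and 63.4 TPM and 55.2, 59.1 and 57.05 TPM (-0.16, limma adjusted p = 0.0421). That call was lost with the replicate block (limma adjusted p = 0.0679), under 5 other settings and in 5 of 6 fits without 1 library, every library but TRI-611 replicate 2 (limma adjusted p = 0.0702 to 0.150).

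ETV1 (ENSG00000006468, chromosome 7, 13891228 to 13991425, minus strand) measured 21.5, 20.7 and 21.4 TPM with DMSO and 17.6, 19.03 and 17.3 TPM with TRI-611 in SNU2535, and fell (-0.23, limma adjusted p = 0.0150). The adjusted p was 0.0516, 0.0518 and 0.0548 without DMSO replicate 1, DMSO replicate 3 and TRI-611 replicate 3 (limma). In NCI-H2228 ETV1 stood at 86.2, 76.95 and 81.3 TPM and 75.5, 69.9 and 76.4 TPM (-0.14, limma adjusted p = 0.150), and in NCI-H3122 at 1.49, 1.69 and 1.76 TPM and 1.34, 1.32 and 1.07 TPM (-0.24, adjusted p = 0.228). Neither passed, although the treatments did not overlap in any of the 3 lines, and at the low level in NCI-H3122 the added pseudocount of 1 compresses any change. A pseudocount of 0.1 did not bring the NCI-H3122 change past the threshold. Of 16 alternatives there, 1 did, the fit of all 18 libraries (limma adjusted p = 0.00591). Summed over the group, PEA3 transcripts went from 93.3 ± 0.688 to 66.3 ± 4.80 TPM in SNU2535, from 72.8 ± 0.700 to 56.02 ± 7.79 TPM in NCI-H3122 and from 266 ± 9.80 to 217 ± 4.79 TPM in NCI-H2228 (SD, n = 3 each). The share of ETV5 went to 23.9 ± 2.67%, 10.9 ± 0.719% and 39.7 ± 0.446%, below its DMSO share in each line.

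ETS1 and ETS2 are the founding members of the family; ETS1 fell in SNU2535 and NCI-H3122, and ETS2 rose in NCI-H3122. ETS1 (ENSG00000134954, chromosome 11, 128458761 to 128587558, minus strand) measured 56.1, 54.6 and 52.00 TPM with DMSO and 40.98, 39.7 and 38.4 TPM with TRI-611 in SNU2535. The values were 37.9, 38.8 and 35.1 TPM and 32.01, 32.5 and 30.7 TPM in NCI-H3122, and 113, 119.9 and 121 TPM and 115, 115 and 114 TPM in NCI-H2228. The treatments were apart in SNU2535 and NCI-H3122 and overlapped in NCI-H2228. ETS1 fell in SNU2535 (-0.44, SE 0.0451, limma adjusted p = 0.000313) and NCI-H3122 (-0.22, SE 0.0516, adjusted p = 0.0126), and stood at -0.039 in NCI-H2228 (95% interval -0.12 to 0.046, adjusted p = 0.567). The response in SNU2535 was lower than in NCI-H2228 by -0.40 (limma adjusted p = 0.000632). Its difference from NCI-H3122, -0.22 (limma adjusted p = 0.0401), was -0.087 under median-ratio scaling (limma adjusted p = 0.481). Leaving out 1 library also ended that call for SNU2535 (DMSO replicates 1 and 2, TRI-611 replicates 2 and 3) and for NCI-H3122 (DMSO replicates 1 and 3, TRI-611 replicates 1 and 2), with values from single fits (limma adjusted p = 0.0525 to 0.0967).

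ETS2 (ENSG00000157557, chromosome 21, 38805307 to 38824955, plus strand) measured 92.2, 91.1 and 91.6 TPM with DMSO and 105, 105 and 100.1 TPM with TRI-611 in NCI-H3122, where it rose (0.17, SE 0.0352, limma adjusted p = 0.00737). It measured 37.04, 36.02 and 37.9 TPM and 32.3, 33.3 and 34.2 TPM in NCI-H2228 (-0.15, limma adjusted p = 0.0737, 0.0319 under median-ratio scaling). In SNU2535 it measured 42.3, 43.6 and 42.2 TPM and 44.3, 44.4 and 39.9 TPM (0.0037, 95% interval -0.11 to 0.12). Treatments were apart in NCI-H3122 and NCI-H2228, in opposite directions, and overlapped in SNU2535. The response in NCI-H3122 exceeded that in NCI-H2228 by 0.32 (limma adjusted p = 0.00124). The ratio of ETS1 to ETS2 went from 1.27 ± 0.0505 to 0.927 ± 0.0344 in SNU2535 and from 0.407 ± 0.0222 to 0.307 ± 0.00129 in NCI-H3122.

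Among the ternary complex factors, 2 of 3 passed in NCI-H3122, where 34.1% of all tested genes passed. ELK3 (ENSG00000111145, chromosome 12, 96194382 to 96269835, plus strand), which can repress serum response genes and turns activator on phosphorylation, measured 101, 98.4 and 96.3 TPM with DMSO and 81.3, 85.9 and 76.97 TPM with TRI-611 there, and fell (-0.27, SE 0.0468, limma adjusted p = 0.00331). In SNU2535 it stood at 0.027 (95% interval -0.06 to 0.11) and in NCI-H2228 at 0.014 (-0.072 to 0.10), with overlapping treatments in both. The response in NCI-H3122 was lower than in SNU2535 (SNU2535 minus NCI-H3122 0.30, limma adjusted p = 0.00377) and in NCI-H2228 (NCI-H3122 minus NCI-H2228 -0.29, adjusted p = 0.00616). ELK1 (ENSG00000126767, chromosome X, 47635521 to 47650604, minus strand) measured 48.7, 46.5 and 47.4 TPM and 41.4, 37.98 and 35.1 TPM in NCI-H3122 and fell (-0.31, SE 0.0616, limma adjusted p = 0.00620).

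In SNU2535 ELK1 measured 27.9, 25.97 and 27.9 TPM and 24.9, 24 and 23.9 TPM (-0.16, limma adjusted p = 0.0391). This call was weak: with the replicate block the adjusted p was 0.0663, under quantile normalization 0.204 with a change of -0.10, and without 1 library it was lost for all but DMSO replicate 2 (limma adjusted p = 0.0507 to 0.123). ELK1 in NCI-H2228 did not pass (-0.086, 95% interval -0.21 to 0.039). ELK4 (ENSG00000158711, chromosome 1, 205597556 to 205631962, minus strand) passed in no line. It measured 18.6, 17.01 and 18.8 TPM with DMSO and 13.5, 16.7 and 14.9 TPM with TRI-611 in SNU2535 (-0.26, limma adjusted p = 0.0511, 0.0202 without TRI-611 replicate 2). Its changes in NCI-H3122 and NCI-H2228 were -0.037 and 0.10, with replicates that overlapped.

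Each batch of the labels holds 1 library per group. Within batches 1, 2 and 3, 8 of the 10 members changed in 1 direction in SNU2535 (6 lower, 2 higher), 9 in NCI-H3122 (6 lower, 3 higher) and 7 in NCI-H2228 (5 lower, 2 higher). Of tested genes, 56.9% did so in SNU2535 (32.2% lower, 24.8% higher), 58.5% in NCI-H3122 (22.5% lower, 36% higher) and 49% in NCI-H2228 (23.2% lower, 25.8% higher). ELF3 was higher and ETV5 lower in every batch of every line. Exonic bases are also shared by ETV4 with DHX8 (68 bases, opposite strand), ETV5 with DGKG (164 bases, same strand) and ELK4 with MFSD4A (422 bases, opposite strand). At most, DHX8 reached 106% of the TPM of ETV4 in any library, DGKG 13.4% of ETV5 and MFSD4A 146% of ELK4. ELK3 shares 209 with AC008149.1 and ELK4 33 with AC096533.1, both on the opposite strand and at most 1.29 and 1.00 TPM in any library. DHX8 rose in NCI-H3122 (0.38, limma adjusted p = 0.000872) and did not pass elsewhere. MFSD4A rose in SNU2535 (0.36, limma adjusted p = 0.00221), from 14.8 to 19.3 TPM, and in NCI-H3122 (0.67, adjusted p = 0.00165). DGKG fell in SNU2535 (-0.48, limma adjusted p = 0.0207) from 3.22 to 2.02 TPM. DGKG went from 12.8 to 10.00 TPM in NCI-H2228 and did not pass (-0.32, limma adjusted p = 0.0518). Whether reads in the shared bases add to the member levels was not tested.

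Among 18 other ETS family genes, 10, 8 and 10 passed the filter in SNU2535, NCI-H3122 and NCI-H2228. In SNU2535 3 rose and 4 fell, in NCI-H3122 5 rose and 3 fell, and in NCI-H2228 2 rose and 1 fell. Over all tested genes, the called shares were 10.7%, 20.6% and 4.8% higher and 18.1%, 13.4% and 6.4% lower. ELF1, a broadly expressed relative of ELF3, rose from 101 ± 3.79 to 152 ± 2.02 TPM in SNU2535 (log2 change 0.58), from 61.9 ± 1.49 to 112 ± 5.15 TPM in NCI-H3122 (0.84) and from 69.6 ± 1.25 to 96.2 ± 3.45 TPM in NCI-H2228 (0.46, limma adjusted p = 3.13e-05, 1.12e-05 and 0.000302). SPDEF, an epithelial ETS factor known from secretory cells, fell in all 3 lines, from 17.9 ± 0.342 to 12.5 ± 1.49 TPM in SNU2535, from 50.5 ± 1.86 to 17.1 ± 2.23 TPM in NCI-H3122 and from 65.5 ± 4.70 to 37.9 ± 1.66 TPM in NCI-H2228 (log2 change -0.49, -1.52 and -0.77, limma adjusted p = 0.00372, 2.02e-05 and 0.000143). SPDEF therefore moved against ELF3 in each line. The repressor ETV6 fell in SNU2535 (-0.50) and rose in NCI-H3122 (0.25), and the repressor ETV3 fell in SNU2535 (-0.39) and NCI-H3122 (-0.32). ELF2 rose in NCI-H2228 at 0.23 (limma adjusted p = 0.0442), a call lost with the replicate block (0.0663) and without any 1 of the 6 libraries (limma adjusted p = 0.0601 to 0.136).

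**Figure D4:**
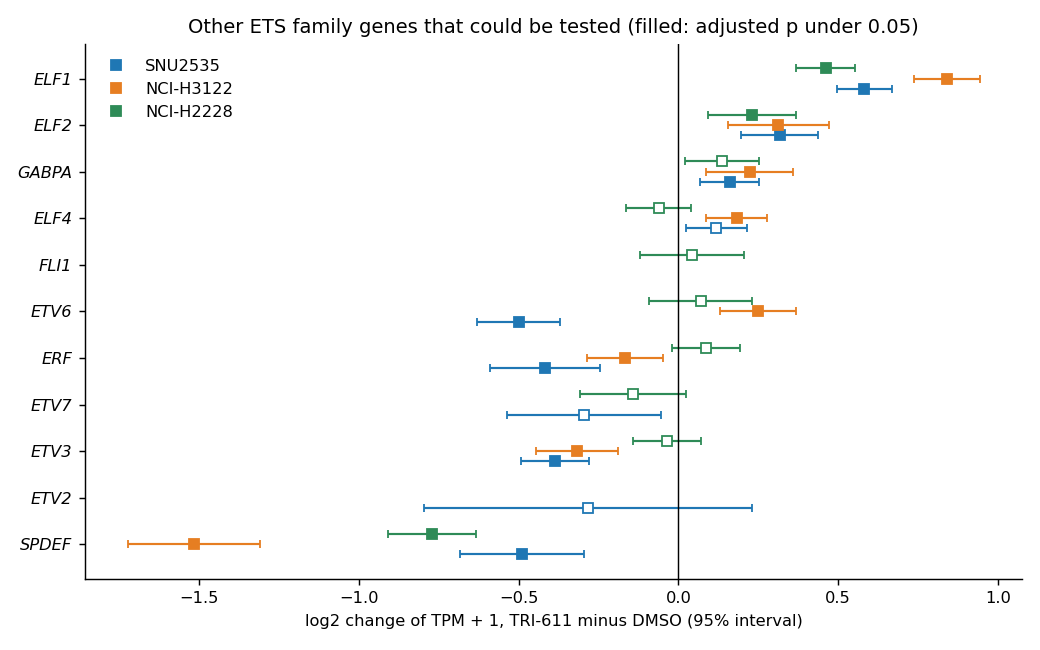
Log2 change of TPM + 1 with TRI-611 for the other ETS family genes that passed the filter, by line, with limma's 95% interval and filled points for an adjusted p under 0.05. ELF1 is higher and SPDEF lower in all 3 lines.

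Genes known to respond to these factors, or held by the same repressor, were described as lists chosen with earlier results of these data known, so their directions are not independent evidence. Of the CIC target genes other than the members, 14 of 16 tested fell in SNU2535, 14 of 15 in NCI-H3122 and 15 of 16 in NCI-H2228, and none rose, beside 18.1%, 13.4% and 6.4% of all tested genes called lower (median log2 change of the list -1.7, -1.48 and -0.672). DUSP6, the ERK phosphatase, changed by -4.24, -4.36 and -1.86 in the 3 lines, and the feedback inhibitor SPRY4 by -4.14, -4.04 and -1.66. ETV5, ETV4 and ETV1, which CIC also represses, changed by -1.05, -0.24 and -0.23 in SNU2535, far less than either. PHLDA1 (-3.88, SNU2535), DUSP5 (-3.05, NCI-H3122) and SPRED3 (-1.67, NCI-H2228) completed the largest falls of the list. DUSP6 in SNU2535 and SPRY4 in SNU2535 and NCI-H3122 lay below 1 TPM with TRI-611, as did EGR2 in SNU2535, so only their DMSO libraries took them past the filter.

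Of the serum response element genes that ELK factors serve, 9 of 13 tested fell in SNU2535, 11 of 14 in NCI-H3122 and 3 of 11 in NCI-H2228, with none higher (median -0.606, -0.518 and -0.136). Beside these counts, 18.1%, 13.4% and 6.4% of all tested genes were called lower. EGR1, the classic immediate early gene, went from 38.04 ± 1.42 to 5.44 ± 1.57 TPM in NCI-H3122 (-2.63, limma adjusted p = 4.68e-05). In SNU2535 it changed by -1.25 (limma adjusted p = 0.0222), a call lost without TRI-611 replicate 1 (0.0770) or 2 (0.0620). Its relative EGR2 fell in SNU2535 (-1.08) and NCI-H3122 (-2.62). The survival gene MCL1 fell in NCI-H3122 (-0.95) and NCI-H2228 (-0.50), and KLF10 fell in NCI-H2228 (-0.50). SRF, the partner of the ELK factors and itself on this list, fell in all 3 lines (-0.87, -0.48 and -0.26), the last with an adjusted p of 0.0118 in limma and 0.0576 with plain empirical Bayes.

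Protease and other genes known as PEA3 and ETS1/2 targets moved both ways: 5 rose and 3 fell of 13 in SNU2535, 2 rose and 8 fell of 15 in NCI-H3122, and 2 rose and 3 fell of 15 in NCI-H2228 (median 0.113, -0.17 and 0.00588). The shares of all tested genes were 10.7%, 20.6% and 4.8% higher and 18.1%, 13.4% and 6.4% lower. PLAU, which encodes urokinase, fell from 297 ± 5.10 to 118 ± 10.03 TPM in SNU2535 (-1.32) and from 219 ± 8.47 to 66.02 ± 1.93 TPM in NCI-H3122 (-1.71). The collagenase MMP13 rose instead, by 1.68 in SNU2535 and 0.69 in NCI-H2228, and the matrix protease MMP7 rose by 0.70 in SNU2535. MMP1 (-1.65, NCI-H3122), PLAUR (-0.68, NCI-H2228) and PTGS2 (-1.28 in NCI-H3122 and -0.61 in NCI-H2228) fell.

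Epithelial genes bound by ELF3 and EHF also moved both ways: 7 rose and 4 fell of 19 in SNU2535, 7 rose and 4 fell of 18 in NCI-H3122, and 1 rose and 2 fell of 15 in NCI-H2228 (median 0.0471, -0.0125 and 0.0671). All tested genes gave 10.7%, 20.6% and 4.8% higher and 18.1%, 13.4% and 6.4% lower. In NCI-H3122 the epithelial regulators OVOL2 (1.27) and GRHL2 (0.89) and the splicing factor ESRP1 (0.53) rose. CLDN4, a tight junction gene, rose in SNU2535 (0.33) and NCI-H2228 (0.22), while the keratin genes KRT18 in SNU2535 (-0.30) and KRT19 in NCI-H2228 (-0.25) fell. OVOL2 in SNU2535 (0.41, limma adjusted p = 0.0257) lost its call when 1 library was left out (replicates 1 and 3 of DMSO, 2 and 3 of TRI-611, limma adjusted p = 0.0718 to 0.0814). KRT18 in NCI-H2228 (-0.20, limma adjusted p = 0.0212) lost its call when replicate 2 of either treatment or replicate 3 of TRI-611 was left out (limma adjusted p = 0.0557 to 0.0706). The 13 lung adenocarcinoma and epithelial markers summed to 11133 to 11600 TPM with DMSO and 10519 to 11052 TPM with TRI-611 in SNU2535, to 9004 to 9323 and 7833 to 8326 TPM in NCI-H3122, and to 4022 to 4185 and 3727 to 3831 TPM in NCI-H2228. Their part in the ELF3 and EHF changes was not tested.

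Regulators and partners of ETS factors included 6 that rose and 5 that fell of 22 in SNU2535, 9 and 3 of 22 in NCI-H3122, and 3 and 1 of 22 in NCI-H2228 (median 0.0192, 0.0989 and 0.0467). Among all tested genes, 10.7%, 20.6% and 4.8% were called higher and 18.1%, 13.4% and 6.4% lower. ID2, whose protein can bind ELK factors and block their DNA contact, rose in all 3 lines, from 54.4 ± 3.89 to 128 ± 3.31 TPM in SNU2535 (1.23), from 15.04 ± 0.676 to 50.2 ± 3.11 TPM in NCI-H3122 (1.67) and from 21.8 ± 1.21 to 35.6 ± 2.34 TPM in NCI-H2228 (0.68). CIC RNA fell in SNU2535 (-0.72, limma adjusted p = 0.000165). SRF, also counted among the serum response element genes, was the 1 that fell in NCI-H2228 (-0.26). That SRF call was lost with plain empirical Bayes (limma adjusted p = 0.0576). The SRF coactivator MRTFB (0.64) and the acetyltransferase CREBBP (0.50) rose in NCI-H3122. FOXP1, a forkhead factor, stood at 0.34 in NCI-H2228 (limma adjusted p = 0.0272), a call lost without any 1 DMSO replicate or without TRI-611 replicate 1 (limma adjusted p = 0.050006 to 0.0983).

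Across the 18 libraries the PEA3 genes were nearest to different genes. Likeness was measured as the root mean square difference in log2(TPM + 1) after each gene was centred, over 19939 genes. ETV1 was nearest to SHISAL1 (0.167), NAV3 (0.167) and TWIST2 (0.214), and ETV5 to JCAD (0.245), LRRC4 (0.246) and SHISA2 (0.289). ETV4 was nearest to DDX18 (0.0863), PCBP1 (0.088) and PSMC4 (0.0906). ETV1 ranked ETV5 at 336 and ETV4 at 10510 of these genes. The measure takes in the size of differences between lines as well as their order. ETV1 and ETV5 had the same order of untreated lines, so these ranks do not decide whether a pattern is shared. These values are descriptions over libraries of 3 lines.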

How the data were processed

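Poly-A RNA was sequenced in 18 libraries with a kit that adds molecular identifiers, per the labels' protocols. The authors deposited 1 table of TPM for 57500 genes, summing to 1000000 per library. Per the submitters' processing notes the tools included Subread 1.5.2 with featureCounts, STAR 2.5.2b, DESeq2 and fastp 0.23.1, and the build was GRCh38. Not given in the sources used here: annotation, strand setting, use of identifiers and derivation of TPM. Genes were matched by name (485 have none), 3 listed genes by ID under older symbols. GENCODE 29 (GRCh38) held 56898 of the IDs and gave coordinates.

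TPM was transformed to log2(TPM + 1), which understates changes of low genes. Genes with 1 TPM or more in at least 3 libraries of a fit entered limma 3.58.1 under R 4.3.3 (trend and robust empirical Bayes, two-sided), with p adjusted by Benjamini-Hochberg over all tested genes and called under 0.05. Fits used the 6 libraries of a line, the 9 DMSO libraries, or 12 libraries of a pair of lines (interaction). All 10 members passed every filter. Members and lists were chosen with earlier results of these data known. The text names all members, ALK, and per list and line up to 3 called genes with the largest change, with values of these genes in other lines where useful. The labels' batch, equal to the replicate number, pairs libraries across groups. Deviations of same-numbered libraries correlated across genes at r = 0.101, 0.00343 and 0.083 for NCI-H2228 (batches 1 to 3), -0.0865, -0.029 and 0.0152 for NCI-H3122, and -0.0228, 0.0437 and 0.00966 for SNU2535. The fitting steps were tested on simulated data. Alternatives were pseudocounts of 0.1 and 5, other filters, the block, 2 scalings, fits without mitochondrially encoded genes, plain empirical Bayes, all 18 libraries, and leaving out each library. After seeing the data, list counts under these settings were added. Matplotlib 3.10.9 drew the figures.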

Additional observations from a re-analysis of the deposited data

Results flagged for a closer look

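The response to TRI-611 differed between lines for 5 members, by the interaction test of limma with p adjusted over all tested genes. By pair, 2 of 10 members passed for SNU2535 minus NCI-H3122, 3 for SNU2535 minus NCI-H2228 and 4 for NCI-H3122 minus NCI-H2228. The shares of all tested genes were 20.1%, 10.6% and 14.3%, so the first count is near that of all genes. EHF differed most: SNU2535 minus NCI-H2228 was 0.85 (limma adjusted p = 1.21e-06) and NCI-H3122 minus NCI-H2228 was 0.98 (adjusted p = 1.94e-06). ETV5 differed by -0.57 and -0.46 in the same pairs (limma adjusted p = 0.0184 and 0.0128). ETS1 differed by -0.40 for SNU2535 minus NCI-H2228 (limma adjusted p = 0.000632) and by -0.22 for SNU2535 minus NCI-H3122 (adjusted p = 0.0401). The latter ETS1 call was lost in 12 of 22 alternatives. ELK3 differed by 0.30 for SNU2535 minus NCI-H3122 and by -0.29 for NCI-H3122 minus NCI-H2228 (limma adjusted p = 0.00377 and 0.00616). ETS2 differed by 0.32 for NCI-H3122 minus NCI-H2228 (limma adjusted p = 0.00124).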

How the results depend on the processing

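Of 90 member results, 71 kept their side of the threshold without a called change of sign under every alternative run, and 60 of these also kept their direction, among them the ELF3, EHF and ETV5 responses in all 3 lines. The other 11 were not called and changed sign in at least 1 alternative. Over 1710 combinations of result and setting, 44 lost and 29 gained a call with the same sign, and 4 called results changed sign. ETV4 between untreated NCI-H3122 and NCI-H2228 was called in the other direction (0.18 under median-ratio scaling, 0.13 under quantile normalization). ELK3 in the same pair (0.063, median-ratio scaling, limma adjusted p = 0.121) changed sign and lost its call. So did ELK4 between SNU2535 and NCI-H3122 (-0.055, quantile normalization, limma adjusted p = 0.396). The cause was not tested. With the replicate block, 87 of 90 member results kept their side: ETV4 in NCI-H2228 (adjusted p = 0.0679 in limma) and ELK1 in SNU2535 (0.0663) lost their calls and ETV4 in NCI-H3122 (0.0355) gained one.

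For the response difference of SNU2535 minus NCI-H3122, 2 of 10 members passed, beside 20.1% of tested genes. The member count was 1 with a filter of TPM above 0, quantile normalization or plain empirical Bayes, and 1 to 2 without 1 library. Under median-ratio scaling ELK1 and ELF3 gained a call and ETS1 lost its own (limma adjusted p = 0.0410, 0.0400 and 0.481). ETS2 gained a call without mitochondrially encoded genes (limma adjusted p = 0.0220) and in the fit of all 18 libraries (0.0484). For SNU2535 minus NCI-H2228, 3 of 10 passed, beside 10.6% of tested genes. That count was 5 under quantile normalization and 3 to 4 without 1 library. In NCI-H2228, 1882 of all genes passed, 1052 with a filter of TPM above 0 (more genes tested), 1177 with plain empirical Bayes and 1152 to 1759 without 1 library. The share of calls that were higher moved from 37.1% to 50.9% in SNU2535 under quantile normalization, from 60.6% to 44.2% in NCI-H3122 under median-ratio scaling and from 42.8% to 56.1% in NCI-H2228 without mitochondrially encoded genes. For response differences it moved from 18.5% to 56% (SNU2535 minus NCI-H3122), 25.9% to 44.5% (SNU2535 minus NCI-H2228) and 62.7% to 44.1% (NCI-H3122 minus NCI-H2228) under median-ratio scaling. Depth is unknown, so differences of low genes such as ETV1 in NCI-H3122 have no counting interval.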

Other observations

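3 members have an ETS relative as a chromosomal neighbour with no protein-coding gene between them. FLI1 lies 99.0 kb from ETS1 and measured 8.59 TPM (DMSO) and 8.87 TPM (TRI-611) in NCI-H2228, the line with most ETS1, and at most 0.0282 TPM as a group mean in SNU2535 and 0 TPM in NCI-H3122. ERG, 143.5 kb from ETS2, reached at most 0.950 TPM in any library and was highest in NCI-H3122 (0.851 TPM with DMSO), the line with most ETS2. ELF5, 107.3 kb from EHF, reached at most 0.731 TPM, with 0.302 TPM in SNU2535 with DMSO and 0 TPM in NCI-H2228. These are group means of 3 libraries, and no test was run on the pairing of neighbours.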
